A study of Mus musculus with 2 samples.

Results

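The genes described here are the axon guidance ligands and receptors: the semaphorins and plexins, the Eph receptors and ephrins, the netrins with Dcc and the Unc5 receptors, and the Slits and Robos. They were taken as every gene whose name on the array begins with one of these family names, which gave 70 of the 29608 genes on the array, carried by 101 probes. The rule also caught 3 genes by name alone, Unc50, Unc5cl and Plxna4os1. They encode a Golgi membrane protein, a death-domain protein related to the Unc5 family and an antisense transcript, and they are kept apart below. RNA came from 661W, a mouse line with cone photoreceptor features, grown for 3 days in DMEM/F12 with fetal bovine serum, either without choline or with it. For the sufficient medium the labels state 8.98 g/L choline, which is high and could not be checked here. Each condition is 1 Agilent single-colour array. The design text speaks of RNA pooled over 4 dishes without saying whether that is per condition. No difference below therefore has a replicate check, and no test or p-value is given.

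Guidance cues are secreted or membrane-bound proteins that steer growing axons and migrating cells by attraction or repulsion. Semaphorins act through plexins, which class 3 members reach with neuropilins as co-receptors. Ephrins and Eph receptors signal in both directions between touching cells, netrins attract through Dcc and repel through Unc5 receptors, and Slits repel through Robos. In the retina these families guide ganglion cell axons, arrange the layers of synapses and pattern blood vessels.

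Levels are given as scaled signal, the processed signal with the array's 75th percentile set to 100. Signals of different probes are not comparable with each other, so a level is set against the same gene's level on the other array, and a sum over a marker list against the same sum. A gene's level is the mean, on the log2 scale, over its measured probes. Differences are log2 values, choline-deficient minus choline-sufficient. Values after ± are errors of the difference computed from the scanner software's own error estimates. They leave out how cultures vary. Of the non-control spots, 30435 were well above background on the choline-deficient array and 29467 on the choline-sufficient array, with 0 saturated on either. A gene was measured where at least 1 of its probes was well above background on both arrays, which held for 19816 genes (66.9%) and for 56 of the 70 guidance genes. A further 6 guidance genes were above background on the choline-deficient array only, 0 on the choline-sufficient array only, and 8 on neither. Over all 29608 genes these counts were 993, 360 and 8434 in that order. A fold written with "at least" for genes or probes above background on 1 array leaves the error aside, so it is no strict limit.

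More guidance genes lay at least 1.5-fold higher than lower on the choline-deficient array. Of the 56 measured, 17 were at least 1.5-fold higher, which is 30.4% against 14.8% of all measured genes. In the other direction 6 (10.7%) were at least 1.5-fold lower, against 14.1% of all measured genes. At 2-fold, 14 were higher, against 7.67% of all measured genes, and 4 were lower, against 3.88%. The median difference was 0.27 over the measured guidance genes and -0.10 over all measured genes. Without the 3 genes caught by name, 55 were measured, 17 were higher and 5 lower, and the median was 0.28. The split by direction moved with the scaling. Among all genes 1.5-fold apart, the share that was higher was 51.1%, but 37.1% after median scaling, 60.0% after cyclic loess normalization and 80.2% after scaling to the spike-in probes. Among the guidance genes that share was 73.9%, but 61.5%, 80.0% and 86.7% under the same settings in that order.

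**Figure D1:**
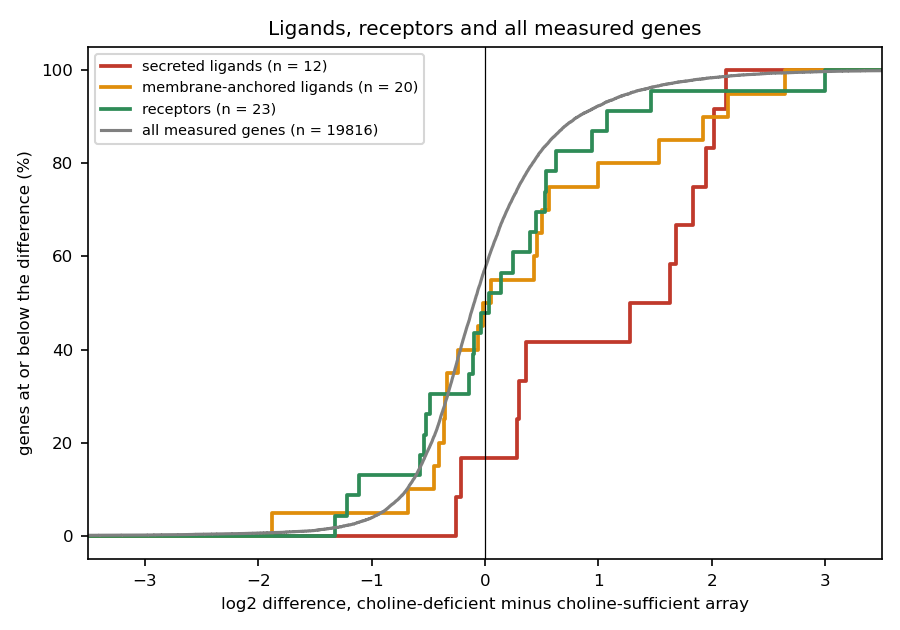
Cumulative share of measured genes (y axis, %) by log2 difference, choline-deficient minus choline-sufficient (x axis). Curves are drawn for 12 secreted ligands, 20 membrane-anchored ligands, 23 receptors and all 19816 measured genes. At least 1.5-fold higher were 58.3% of the secreted ligands, 25% of the membrane-anchored ligands, 21.7% of the receptors and 14.8% of all measured genes.

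The ligands accounted for most of the higher genes. Counts of families and lists here and below are to be read beside all measured genes, of which 14.8% were higher and 14.1% lower. Of 32 measured ligands 12 (37.5%) were higher and 2 (6.25%) lower (median 0.40). Of 23 measured receptors 5 (21.7%) were higher and 3 (13.0%) lower, closer to those shares. Their median of 0.04 ran between -0.08 and 0.32 over the alternative settings. Among ligands the secreted ones, which are the class 3 semaphorins, netrins and Slits, stood furthest from 0. Of 12 measured, 7 (58.3%) were higher and 0 lower. The median of 1.45 stayed above 0 in every alternative (0.54 to 1.72). Of the 20 membrane-anchored ligands 5 (25%) were higher and 2 (10%) lower. Their median of 0.02 ran between -0.16 and 0.43. Whether secreted and anchored ligands differ beyond chance cannot be tested with 1 array per condition.

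**Figure D2:**
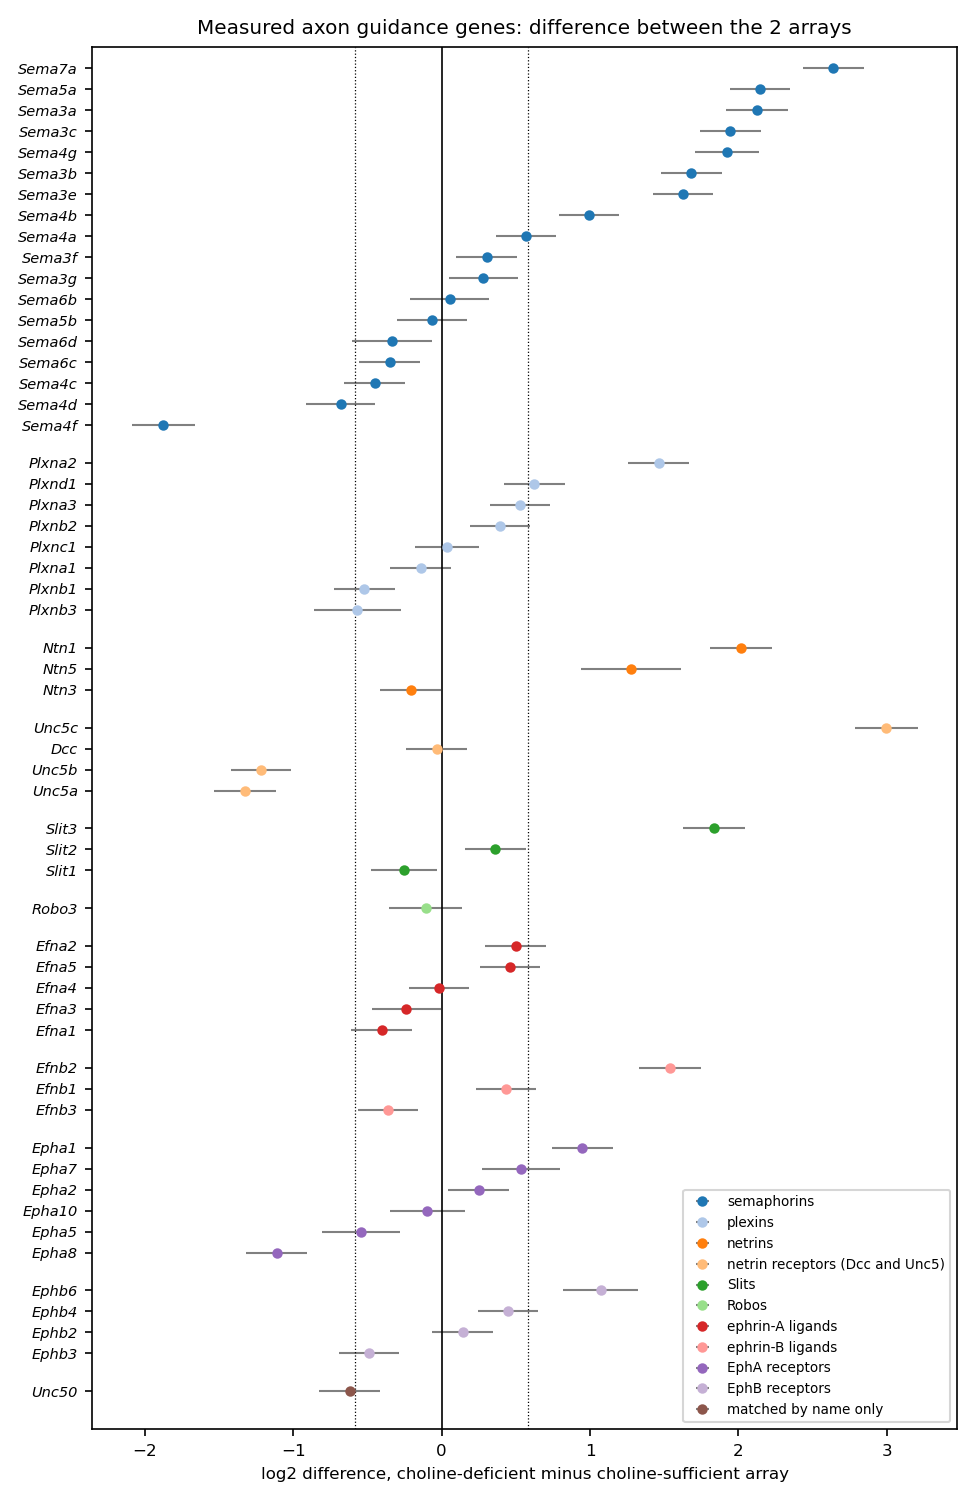
Log2 difference, choline-deficient minus choline-sufficient (x axis), of each measured guidance gene by family (y axis), with bars for the error and dotted lines at 1.5-fold. Class 3 semaphorins lie above 0 in all 6 cases, 4 of them past 1.5-fold. The netrin receptors hold both the highest gene, Unc5c at 3.00, and a pair of lower ones, Unc5a and Unc5b.

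Class 3 semaphorins are the secreted class that signals through neuropilins and A-type plexins. All 6 measured had differences above 0, but only 4 passed 1.5-fold. Those 4 were more than 3-fold higher on the choline-deficient array. Sema3a, the prototype growth cone collapsing factor, had a scaled signal of 20.0 in choline-deficient cells and 4.58 in choline-sufficient cells, a difference of 2.12 ± 0.21 (4.36-fold). Sema3c, which guides cardiac neural crest cells, had 113 in choline-deficient and 29.5 in choline-sufficient cells, a difference of 1.95 ± 0.20 (3.85-fold). Sema3a and Sema3c were each read by 2 probes that gave the same direction, at 1.79 and 2.45 for Sema3a and at 1.87 and 2.02 for Sema3c. After normexp, a background correction that adds an offset of 50 and shrinks differences of dim probes, Sema3a differed by 1.34. Sema3b had 19.7 in choline-deficient and 6.13 in choline-sufficient cells (1.68 ± 0.20, 3.21-fold). Sema3e, which binds Plxnd1 directly without a neuropilin, had 49.4 in choline-deficient and 16.0 in choline-sufficient cells (1.63 ± 0.20, 3.09-fold). The remaining 2 measured members stayed within 1.5-fold, Sema3f at 0.30 ± 0.20 and Sema3g at 0.28 ± 0.23. The 2 Sema3g probes gave 0.02 and 0.54. Sema3d was above background on the choline-deficient array only, at 1.01 against 0.344 in choline-sufficient cells, a difference of 1.56 ± 0.39 (2.94-fold).

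Sema7a, a GPI-anchored semaphorin that binds integrins and Plxnc1, was the ligand with the largest difference. Its scaled signal was 37.0 in choline-deficient and 5.92 in choline-sufficient cells, a difference of 2.64 ± 0.21 (6.24-fold). Its single probe (NM_011352) lies on chromosome 9 at 57810607 to 57810666 of mm9, the build of the array's files. Sema5a, one of the transmembrane class 5 semaphorins that confine neurites in the mouse inner retina, had 66.9 in choline-deficient and 15.1 in choline-sufficient cells (2.15 ± 0.20, 4.42-fold), from a probe (NM_009154) on chromosome 15 at 32626025 to 32626084. The other class 5 gene, Sema5b, depends on the probe. A probe for a separate transcript model gave -0.07, whereas both probes for NM_013661 were above background on the choline-deficient array only and were at least 1.68-fold and at least 3.37-fold higher there.

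The transmembrane class 4 semaphorins, which include ligands of B-type plexins, were divided. Sema4g was higher in choline-deficient cells, at 6.55 against 1.73 in choline-sufficient cells (1.92 ± 0.22, 3.79-fold, and 0.73 after normexp). Sema4b was higher too, at 51.6 in choline-deficient and 25.9 in choline-sufficient cells (0.99 ± 0.20, 1.99-fold). Sema4f was lower in choline-deficient cells, at 1.42 against 5.23 in choline-sufficient cells (-1.88 ± 0.21, 3.67-fold, and -0.97 after normexp), read by 1 of its 2 probes (NM_011350), on chromosome 6 at 82862388 to 82862447. Sema4d, a ligand of Plxnb1, had 3.28 in choline-deficient and 5.25 in choline-sufficient cells (-0.68 ± 0.23, 1.60-fold lower), with its 2 probes at -1.05 and -0.31. Sema4a, whose loss causes photoreceptor degeneration in mice, stayed just inside 1.5-fold, at 13.8 in choline-deficient and 9.29 in choline-sufficient cells (0.57). Sema4c also stayed inside, at 4094 in choline-deficient and 5601 in choline-sufficient cells (-0.45). Class 6 semaphorins, ligands of the A-type plexins, held no measured gene past 1.5-fold, with Sema6b at 0.05, Sema6c at -0.35 and Sema6d at -0.33. The 2 Sema6d probes differed: 1 read 263 in choline-deficient and 419 in choline-sufficient cells (-0.67, 1.59-fold lower), and the other 0.567 in choline-deficient and 0.565 in choline-sufficient cells (0.01). Sema6a was above background on the choline-deficient array only, at 0.866 against 0.360 in choline-sufficient cells, a difference of 1.27 ± 0.39 (2.41-fold).

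Among the plexins, the semaphorin receptors, 2 of 8 measured genes (25%) were higher and 0 lower, against 14.8% and 14.1% of all measured genes. Plxna2, a receptor for Sema6a and, with neuropilins, for class 3 semaphorins, had 98.2 in choline-deficient and 35.6 in choline-sufficient cells (1.46 ± 0.20, 2.76-fold). Plxnd1, the Sema3e receptor, had 137 in choline-deficient and 88.7 in choline-sufficient cells (0.62 ± 0.20, 1.54-fold), just outside the 1.5-fold limit. The nearest plexins inside that limit were Plxnb3 at -0.57, Plxna3 at 0.53 and Plxnb1 at -0.52. Plxnb2, a widely expressed B-type plexin, was at 0.39, Plxna1 at -0.14 and Plxnc1, the Sema7a receptor, at 0.04. Plxna4 was not above background on either array. The difference for Plxnd1 was under 1.5-fold after median scaling (0.51), after normexp (0.58) and with the brightest probe alone (0.55).

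The neuropilins, which were not chosen by family name, were both higher. Nrp1 had 8.60 in choline-deficient and 1.17 in choline-sufficient cells (2.88 ± 0.23, 7.37-fold), and Nrp2 had 249 in choline-deficient and 97.8 in choline-sufficient cells (1.35 ± 0.20, 2.55-fold). Both co-receptors and 4 of the 6 measured class 3 semaphorins were thus past 1.5-fold on the choline-deficient side.

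**Figure D3:**
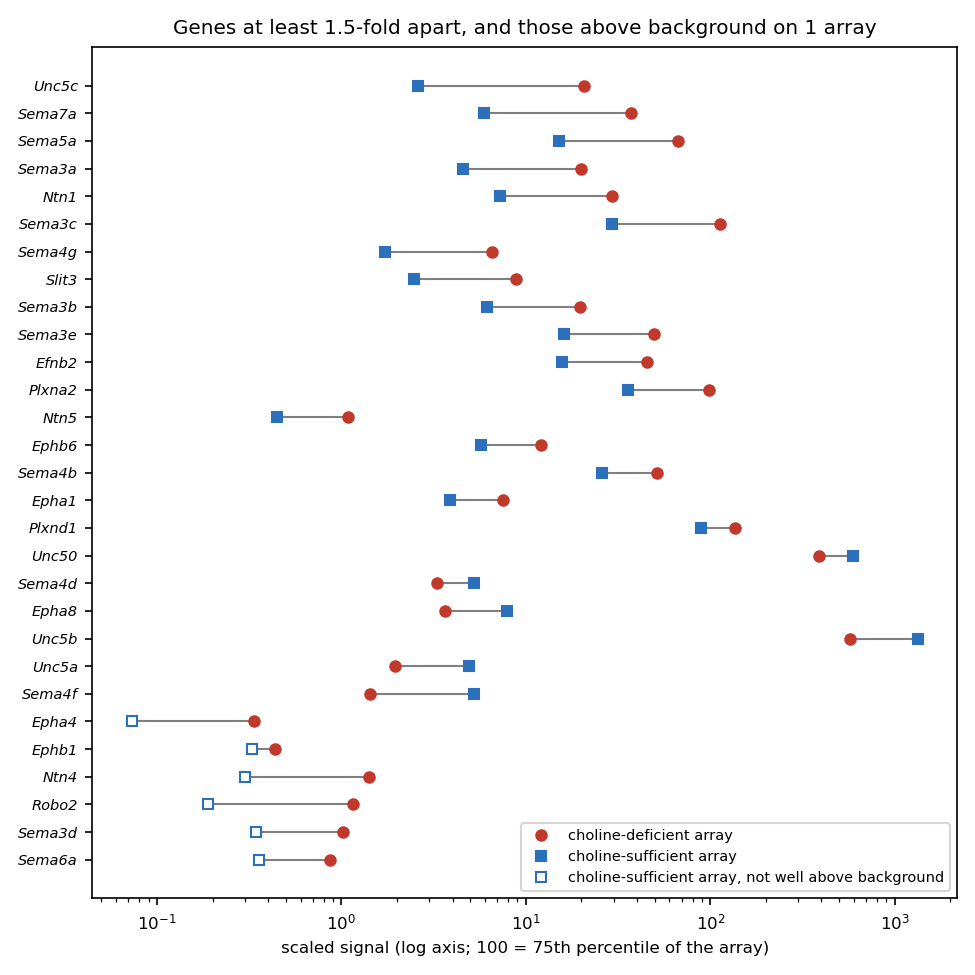
Scaled signal (log axis, 75th percentile of each array at 100) of guidance genes at least 1.5-fold apart or above background on 1 array only, in choline-deficient and choline-sufficient cells, with open symbols where a gene was not well above background. Unc5c stands at 20.6 in choline-deficient and 2.58 in choline-sufficient cells, and Unc5b at 572 and 1330.

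Netrins and their receptors held genes far to both sides. Ntn1, the best known netrin and a long-range or contact cue for axons, had 29.2 in choline-deficient and 7.22 in choline-sufficient cells, a difference of 2.02 ± 0.21 (4.04-fold), with its 2 probes at 1.79 and 2.24. Ntn5 had 1.08 in choline-deficient and 0.448 in choline-sufficient cells (1.28 ± 0.34, 2.42-fold), and its difference was -0.05 after normexp. Ntn3 stayed within 1.5-fold (-0.21). Ntn4, a netrin of basement membranes, was above background on the choline-deficient array only, at 1.40 against 0.301 in choline-sufficient cells, and so at least 4.21-fold higher.

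The Unc5 receptors, which mediate repulsion by netrins, differed in direction from one another. Unc5c had the largest difference of all 56 measured guidance genes and ranked 54 from the top of the 19816 measured genes. Its scaled signal was 20.6 in choline-deficient and 2.58 in choline-sufficient cells, a difference of 3.00 ± 0.21 (7.98-fold, and 1.75 on the log2 scale after normexp). Its 2 probes, on chromosome 3 of mm9, gave 2.94 (NM_009472, at 141497142 to 141497201) and 3.05 (NM_001293561, at 141492190 to 141492249). Unc5b, which also acts in blood vessels, was lower in choline-deficient cells, at 572 against 1330 in choline-sufficient cells (-1.22 ± 0.20, 2.33-fold). Unc5a was likewise lower in choline-deficient cells, at 1.96 against 4.91 in choline-sufficient cells (-1.32 ± 0.21, 2.50-fold, and -0.72 after normexp). Unc5d was not above background on either array. Neo1, a Dcc relative that binds netrins and repulsive guidance molecules, was lower as well, at 126 in choline-deficient and 273 in choline-sufficient cells (-1.11 ± 0.20, 2.16-fold).

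The promoters of the Unc5 genes are shown because these paralogs, with related roles, differed in opposite directions. Each is the 250 bases before the RefSeq transcript start on GRCm38.p6, 5′ to 3′ on the gene's strand. Capitals mark matches to the NF-kB half-site letters, GGG and CC with 5 bases of any kind between them, on either strand.
Unc5c (chr3:141465314-141465563, plus strand): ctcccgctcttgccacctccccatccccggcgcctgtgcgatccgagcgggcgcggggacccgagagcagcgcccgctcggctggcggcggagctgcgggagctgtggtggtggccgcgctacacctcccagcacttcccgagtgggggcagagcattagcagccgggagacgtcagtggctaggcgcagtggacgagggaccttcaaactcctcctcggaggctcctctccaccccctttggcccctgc
Unc5a (chr13:54949161-54949410, plus strand): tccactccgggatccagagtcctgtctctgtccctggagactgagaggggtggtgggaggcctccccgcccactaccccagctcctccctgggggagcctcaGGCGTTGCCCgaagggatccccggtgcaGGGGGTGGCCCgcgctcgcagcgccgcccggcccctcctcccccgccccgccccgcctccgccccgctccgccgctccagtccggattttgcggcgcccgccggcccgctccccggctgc
Unc5b (chr10:60831582-60831831, minus strand): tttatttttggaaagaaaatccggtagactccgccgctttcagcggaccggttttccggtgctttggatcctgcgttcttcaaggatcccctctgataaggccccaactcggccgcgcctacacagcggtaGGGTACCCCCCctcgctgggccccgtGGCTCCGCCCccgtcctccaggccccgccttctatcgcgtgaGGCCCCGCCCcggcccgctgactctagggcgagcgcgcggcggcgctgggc
The Unc5c window held 0 matches, the Unc5a window 3 and the Unc5b window 4, some of them overlapping. These letters are marked because, of the 6 motifs searched, the other 5 had 0 matches in all 3 windows. These letters are common: 45.8% of all 32851 RefSeq promoter windows of this length held at least 1 match.

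For Dcc itself the probes do not read the same thing. A single measured probe gave 5487 in choline-deficient and 5612 in choline-sufficient cells (-0.03), but the files place that probe on chromosome 7, at 68417162 to 68417221 of mm9. The other 2 Dcc probes lie on chromosome 18, where the gene is, and neither was above background on either array. The value of the measured probe is therefore not taken as a level of Dcc.

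Of the Slits 1 of 3 measured genes was past 1.5-fold, and 3 of the 4 Robos were not measured on both arrays. Slit3 was higher in choline-deficient cells, at 8.84 against 2.48 in choline-sufficient cells (1.84 ± 0.21, 3.57-fold, and 0.72 after normexp). Slit2, a midline repellent, had 147 in choline-deficient and 114 in choline-sufficient cells (0.36), and Slit1 stood at -0.25. Among the receptors only Robo3, which controls midline crossing, was measured on both arrays (-0.11). Robo2 was above background on the choline-deficient array only, by 2 of its 3 probes, at 1.15 against 0.190 in choline-sufficient cells, and so at least 3.45-fold higher. Robo1 and the endothelial Robo4 were above background on neither array.

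The median size of the difference, regardless of sign, was 0.42 for ephrins and 0.51 for Eph receptors, against 0.36 for all measured genes. Of 8 measured ephrins 1 (12.5%) was higher and 0 lower, against 14.8% and 14.1% of all measured genes. That gene, Efnb2, a transmembrane ligand of Ephb4 that marks arteries, had 45.3 in choline-deficient and 15.6 in choline-sufficient cells (1.54 ± 0.21, 2.90-fold). Of its 2 probes 1 read 452 in choline-deficient and 113 in choline-sufficient cells, and the other 4.53 in choline-deficient and 2.15 in choline-sufficient cells. None of the 5 ephrin-A genes, whose products are GPI-anchored and map axons across the visual system, reached 1.5-fold. They ran from Efna1 at -0.40 to Efna2 at 0.50. Efnb1 was at 0.43 and Efnb3 at -0.36.

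Of 10 measured Eph receptors 2 (20%) were higher and 1 (10%) lower, near the 14.8% and 14.1% of all measured genes. Ephb6, a receptor without kinase activity, had 12.01 in choline-deficient and 5.71 in choline-sufficient cells (1.07 ± 0.25, 2.10-fold), but its 2 probes differed, at 0.48 and 1.66. Epha1 had 7.48 in choline-deficient and 3.88 in choline-sufficient cells (0.95 ± 0.21, 1.93-fold), and 0.45 after normexp. Epha8 was lower in choline-deficient cells, at 3.65 against 7.89 in choline-sufficient cells (-1.11 ± 0.21, 2.16-fold). Other receptors stayed within 1.5-fold, with Ephb3 at 2990 in choline-deficient and 4193 in choline-sufficient cells (-0.49) and Epha2 at 347 and 292 in that order (0.25). Ephb4 was at 0.45, Ephb2 at 0.14 and Epha10 at -0.10. Epha5 averaged -0.54 ± 0.26 over 2 measured probes. Its brighter probe read 1166 in choline-deficient and 1788 in choline-sufficient cells (-0.62, 1.53-fold lower). The dimmer probe read 0.414 in choline-deficient and 0.572 in choline-sufficient cells (-0.46). A further Epha5 probe was above background on the choline-sufficient array only. Epha7 averaged 0.54 over 3 probes that ran from -0.28 to 1.34. Ephb1 was above background on the choline-deficient array only, at 0.434 against 0.328 in choline-sufficient cells. Its bound was 1.30-fold, but its difference of 0.41 was smaller than the error of 0.46. Epha4 was also above background on the choline-deficient array only, at 0.335 against 0.073, and so at least 1.01-fold higher, which is almost no bound. Epha3 and Epha6 were above background on neither array.

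**Figure D4:**
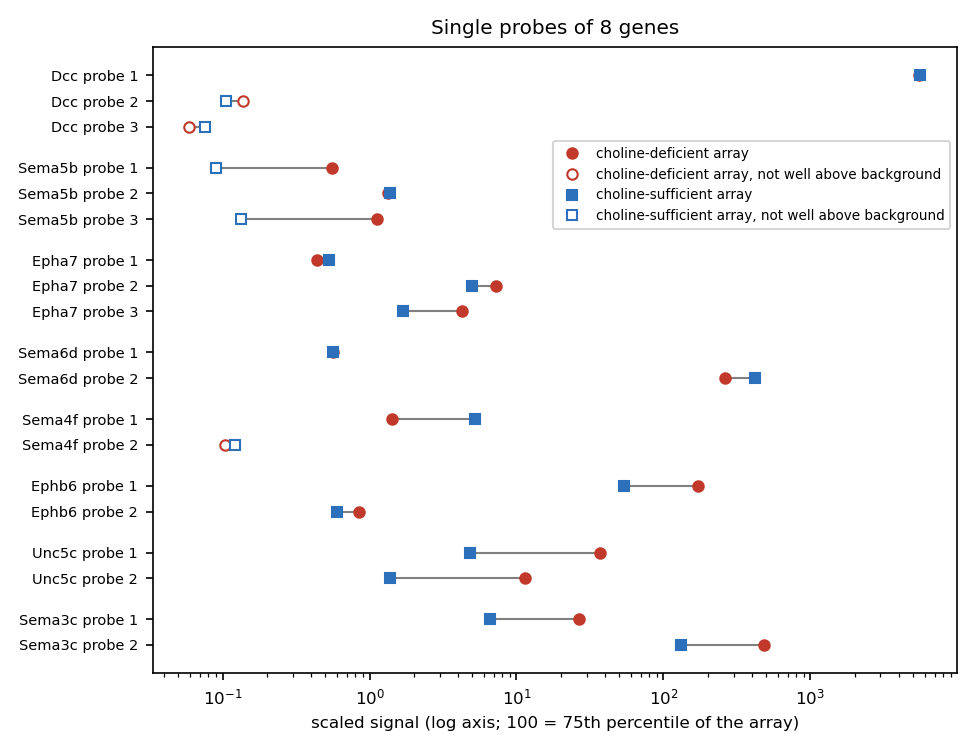
Scaled signal (x axis, log scale, 75th percentile of each array at 100) of the single probes of 8 guidance genes (y axis) in choline-deficient and choline-sufficient cells, with open symbols where a probe was not well above background. The 2 Unc5c probes differ alike, by 2.94 and 3.05 on the log2 scale, while those of Epha7 run from -0.28 to 1.34, and the Dcc probe placed on chromosome 7 stands apart from the other 2.

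Probe agreement bears on the values above. Of 15 guidance genes with at least 2 measured probes, 2 had probes of opposite sign, Epha7 and Sema6d, and neither counts as higher or lower. Of the genes caught by name alone, Unc50 had 387 in choline-deficient and 594 in choline-sufficient cells (-0.62 ± 0.20, 1.54-fold lower), and Unc5cl and Plxna4os1 were above background on neither array.

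Other guidance molecules and the proteins that carry the signal inside the cell gave a mixed picture. Of 35 co-receptors and other cues, 25 were measured, 11 (44%) were higher and 3 (12%) lower (median 0.46). Next to the neuropilins, the ligands Flrt3 (2.23 ± 0.21, 4.69-fold), Flrt2 (1.96 ± 0.21, 3.88-fold) and the chemokine Cxcl12 (1.74 ± 0.20, 3.34-fold) were higher in choline-deficient cells. The adhesion molecule Nrcam was lower, at 1.51 in choline-deficient and 8.09 in choline-sufficient cells (-2.42 ± 0.22, 5.36-fold). Of 57 cytoplasmic effectors, 55 were measured, 14 (25.5%) were higher and 6 (10.9%) lower, against 14.8% and 14.1% of all measured genes. The effector median was 0.08, and -0.036 after median scaling, -0.033 with the brightest probe alone and -0.0064 after normexp. Ngef, the exchange factor ephexin that acts downstream of EphA receptors, had 430 in choline-deficient and 58.0 in choline-sufficient cells (2.89 ± 0.20, 7.40-fold). The actin-binding genes Ablim1 (2.33 ± 0.21) and Ablim3 (1.40 ± 0.20) and the GTPase regulators Sipa1l1 (1.35 ± 0.20) and Srgap3 (1.28 ± 0.21) were higher as well. Fes, a tyrosine kinase that binds plexins, was lower, at 2.75 in choline-deficient and 8.65 in choline-sufficient cells (-1.65 ± 0.21, 3.14-fold).

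Guidance genes are expressed by many cell types, so genes used as markers of other cell types were read on the same arrays. The RNA came from a cultured cell line, and whether other cell types were present was not tested. A marker's signal is therefore not read as the presence or number of such cells. Of 15 fibroblast and mesenchymal markers 14 were measured, 12 were higher and 0 lower (median 2.99). Their summed scaled signal was 16782 in choline-deficient and 7305 in choline-sufficient cells. Sums like this one add different probes, so a few genes of high signal set them: Col1a2 gave 6235 in choline-deficient and 731 in choline-sufficient cells, and Fn1 6097 in choline-deficient and 5994 in choline-sufficient cells. Of single markers, Col1a1 differed by 3.75 ± 0.20 (13.5-fold), and Lum was above background on neither array. Of 12 Müller glia and astrocyte markers 9 were measured, 5 were higher and 1 lower, with summed signals of 4502 in choline-deficient and 1835 in choline-sufficient cells. Vim alone gave 3163 and 1508 of these sums in that order. Dkk3 differed by 3.19 ± 0.20 (9.14-fold higher) and Apoe by -1.72 ± 0.20 (3.29-fold lower), and Sox2 and Kcnj10 were above background on neither array. Of 12 endothelial markers 6 were measured, 2 higher and 2 lower, with a median of -0.23 that was above 0 after spike-in scaling (0.05) and over the brighter probes (0.24). Flt1 was higher, at 258 in choline-deficient and 63.5 in choline-sufficient cells, as was Egfl7, at 207 in choline-deficient and 130 in choline-sufficient cells, and these genes made up most of the sum of 483 in choline-deficient and 222 in choline-sufficient cells. Esam (-0.98) and Kdr (-0.66) were lower. Tek and Cldn5 were above background on the choline-sufficient array only, and the defining genes Cdh5, Tie1, Emcn and Erg on neither array. The markers' part in the values of the guidance genes was not tested.

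Markers of neurons, immune cells and photoreceptors were read in the same way. Of 15 ganglion cell and neuron markers 9 were measured, 3 higher and 3 lower, with sums of 188 in choline-deficient and 112 in choline-sufficient cells. Map2 (2.04 ± 0.21), Tubb3 (0.77) and Isl1 (0.71) were higher, and Elavl3 (-1.20), Rbpms (-0.86) and Pou4f1 (-0.62) lower. Pou4f2, Pou4f3, Nefl, Nefm, Nefh and Stmn2 were above background on neither array. Of 11 microglia and macrophage markers 6 were measured, 1 higher and 0 lower, with sums of 24.9 in choline-deficient and 21.5 in choline-sufficient cells. Tyrobp, C1qa, C1qc, Trem2 and P2ry12 were above background on neither array. Of 16 cone markers 8 were measured, 3 higher and 0 lower (median 0.43, and -0.16 after normexp). The sums were 108 in choline-deficient and 101 in choline-sufficient cells, of which Rxrg alone gave 60.6 and 69.3 in that order. The 3 higher markers were Thrb (1.17), Pde6h (0.87) and Gngt2 (0.72). The defining cone genes Opn1sw, Cngb3 and Grk1 were above background on neither array, while Opn1mw (0.30) and Arr3 (-0.41) were measured. Of 15 rod and shared markers 6 were measured, 2 higher and 0 lower, with sums of 178 in choline-deficient and 212 in choline-sufficient cells. Rom1 alone gave 163 and 197 of these sums in that order. Nrl, Nr2e3 and Crx were above background on neither array. These too are readings of a cultured cell line and are not taken as shares of cell types. Bulk RNA cannot tell a change in the number of cells expressing a marker from a change in its RNA per cell.

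**Figure D5:**
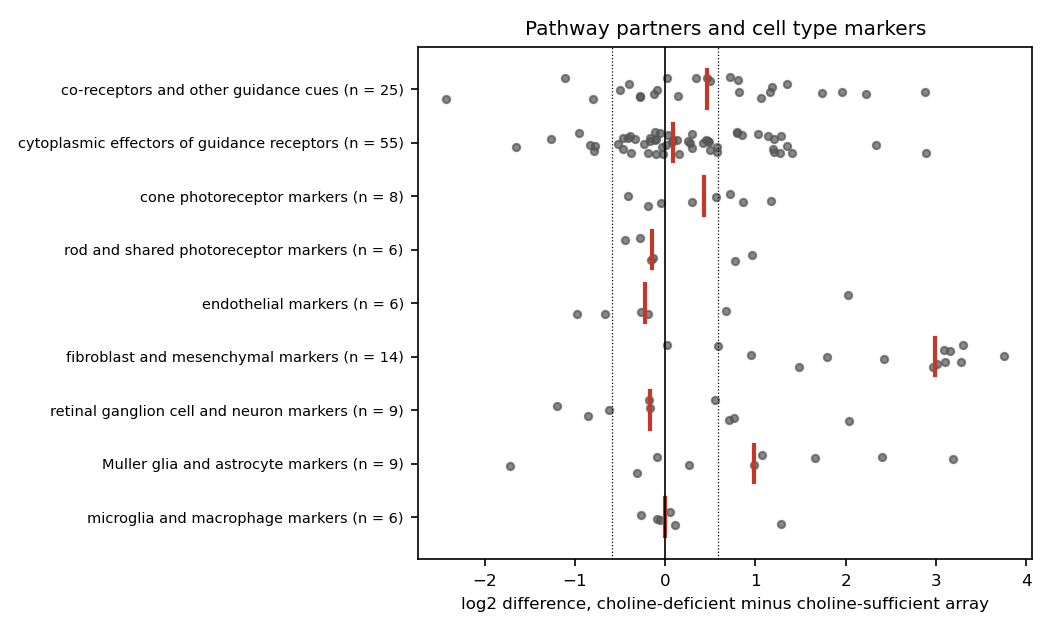
Log2 difference, choline-deficient minus choline-sufficient (x axis), of each measured gene in the lists of co-receptors, effectors and cell type markers (y axis), with list medians as red bars and dotted lines at 1.5-fold. The fibroblast and mesenchymal markers lie furthest above 0, with a median of 2.99.

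Promoter windows of the 250 bases before a transcript start were found in RefSeq (GRCm38.p6) for 59 of the 70 genes, 75 windows in all. The letters of 6 motifs were searched on both strands. Each share is given beside the share of all 32851 windows. The letters GCGNGGGCG, named for EGR zinc finger factors, were in 31.3% of the 16 windows of higher genes, 12.5% of the 8 windows of lower genes and 15.4% of the 39 windows of genes within 1.5-fold, against 4.70% of all windows. Guanine and cytosine made up a median of 68.8% of the windows of higher genes and 52.4% of all windows, so these sets also differ in base composition. The hypoxia core letters ACGTG were in 31.3% of windows of higher genes, 25% of lower and 7.69% of those within, against 16.6% of all. The AP-1 letters TGANTCA were in 0 windows of higher genes and 6.75% of all, the TEAD letters GGAATG in 18.8% and 12.6%, and the E-box letters CANNTG in 62.5% and 66.2%. The NF-kB letters were in 62.5% of windows of higher genes, 87.5% of lower ones and 64.1% of those within, against 45.8% of all. A match is a run of letters and was not measured as a binding site.

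The 5 windows of higher genes that held the EGR letters are shown with the match in capitals, because these letters had the largest ratio of the 6 between higher genes and all windows.
Sema5a (chr15:32244563-32244812, plus strand): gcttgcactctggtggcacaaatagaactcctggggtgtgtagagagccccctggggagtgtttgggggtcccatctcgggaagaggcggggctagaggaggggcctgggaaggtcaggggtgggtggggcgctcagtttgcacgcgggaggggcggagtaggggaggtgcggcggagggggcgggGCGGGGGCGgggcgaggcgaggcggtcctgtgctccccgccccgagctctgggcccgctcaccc
Sema4g (chr19:44989094-44989343, plus strand): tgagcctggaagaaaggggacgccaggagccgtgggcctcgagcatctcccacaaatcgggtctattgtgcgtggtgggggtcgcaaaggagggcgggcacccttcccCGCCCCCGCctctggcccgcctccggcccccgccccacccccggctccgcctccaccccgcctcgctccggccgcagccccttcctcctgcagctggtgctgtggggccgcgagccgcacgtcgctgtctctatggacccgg
Slit3 (chr11:35121206-35121455, plus strand): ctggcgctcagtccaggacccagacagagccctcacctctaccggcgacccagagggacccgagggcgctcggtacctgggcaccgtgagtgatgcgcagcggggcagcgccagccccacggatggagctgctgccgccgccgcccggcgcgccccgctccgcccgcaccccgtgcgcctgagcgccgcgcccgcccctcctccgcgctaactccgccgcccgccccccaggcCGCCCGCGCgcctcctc
Plxna2 (chr1:194619579-194619828, plus strand): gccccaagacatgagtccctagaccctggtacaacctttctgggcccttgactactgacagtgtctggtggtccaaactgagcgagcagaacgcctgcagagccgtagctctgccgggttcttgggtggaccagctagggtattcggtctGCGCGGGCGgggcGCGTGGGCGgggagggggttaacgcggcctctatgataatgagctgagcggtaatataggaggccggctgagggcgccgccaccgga
Epha1 (chr6:42373269-42373518, minus strand): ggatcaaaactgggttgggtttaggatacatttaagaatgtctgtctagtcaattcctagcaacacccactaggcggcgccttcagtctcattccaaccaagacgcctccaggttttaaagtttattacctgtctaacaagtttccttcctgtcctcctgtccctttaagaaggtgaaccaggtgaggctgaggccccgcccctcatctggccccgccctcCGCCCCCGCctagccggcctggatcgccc
The match began 64 bases before the transcript start in Sema5a, 142 in Sema4g, 17 in Slit3, 29 in Epha1, and 100 and 87 in Plxna2, which held 2.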

How the data were processed

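Total RNA of 661W cells was labelled with Cy3 after low-input amplification, per the labels' protocols. The submitters' processing notes name Agilent Feature Extraction 12.1.1.1. The deposited scanner files give an intensity per spot, the processed signal, from which background and a spatial trend were removed per the file headers. The deposited value table holds a ratio of that signal to a constant of each array. Those constants were 1609 (choline-deficient) and 1280 (choline-sufficient), the 75th percentile of each array, and the table's medians were 0.0358 and 0.0337 in that order. The table is linear, with no centring of genes.

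On the log2 scale, the 75th percentile of the non-control spots was subtracted on each array, leaving out control spots and outlier spots (92 and 86). Spots of a probe were averaged, and a gene's value is the mean over probes well above background and unsaturated on both arrays (26461 of 39426 probes). A gene above background on 1 array has a bound. It is the level there over the higher of its own level on the other array and the lowest signal above background there. Where its own level was the higher, as for Sema3d and Sema6a, this is the observed ratio. The bound leaves the error out, and probes not well above background can lie above that lowest signal. Errors were propagated from the software's processed errors. Over 268 repeated probes the SD between spots had a median of 0.05. Genes were counted at 1.5-fold, with 2-fold as an alternative. The number of arrays limits the precision.

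Named with values were guidance genes at least 1.5-fold apart or above background on 1 array, up to 6 genes with the largest differences per list, and defining markers above background on neither array. Neo1, Opn1mw, Arr3, Rxrg and guidance genes within 1.5-fold were named after their values were seen. The guidance genes, the 9 lists and the motifs were chosen with earlier results of these data known. The file headers give mm9 probe positions, used without exon or UTR annotation. Alternatives were median, quantile, cyclic loess and spike-in scaling, normexp with an offset of 50 (limma 3.58.1, R 4.3.3), the deposited table, probe filters and fold sizes. Scripts (Python 3.11.15, numpy 2.4.6, pandas 2.3.3) were tested on simulated data.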

Additional observations from a re-analysis of the deposited data

How the results depend on the processing

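No paired analysis was possible because each condition has 1 array. Of the 23 guidance genes at least 1.5-fold apart, 18 stayed so in the same direction under each of 9 alternatives in which they had a value. The deposited table is 1 of these 9. Its differences lay within 0.00013 of the main ones, so it is no separate check. For a measured gene with a single probe, the probe filters return the same value or none, so they are no check there either. Plxnd1 and Epha1 fell below 1.5-fold as given above, Unc50 under quantile (-0.51), cyclic loess (-0.45) and spike-in scaling (-0.35), and Sema4d under spike-in scaling (-0.41). After normexp Ntn5 was at -0.047, as was the median of the netrins (-0.047). The count of lower guidance genes was 10 with median scaling, and 8 with the brightest probe of each gene. With spike-in scaling 26 were higher and the median over all measured guidance genes was 0.54. That scaling shifted the median of all genes by 0.27, and median scaling shifted it by -0.12. After normexp the guidance median was 0.023, and the genes given with a normexp value above moved by over 1.5 times in fold or to under 1.5-fold. The cause was not tested. Of the further values, 298 moved by less than the error, 92 moved by more and 2 reversed. The 298 include values from the deposited table and from probe filters that could not change. The error was a gene's own for single genes and the median error of 0.20 for medians of families and lists. Leaving out the 3 genes caught by name or the misplaced Dcc probe was chosen after seeing the data. With 1 array per condition, variation between cultures is not measured, and genes near background carry bounds only.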

Other observations

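The class 3 semaphorin genes Sema3d, Sema3a, Sema3e and Sema3c lie in one stretch of chromosome 5 in the RefSeq gene order (GRCm38.p6). All but Sema3d, which was above background on the choline-deficient array only, were more than 3-fold higher in choline-deficient cells. Genes between them were read on the same arrays. Hgf, the hepatocyte growth factor, differed by 3.20 ± 0.21 (9.17-fold higher in choline-deficient cells). Other genes in between did not all follow. Cacna2d1, a calcium channel subunit, was at 0.56 and Pclo, a presynaptic scaffold protein, at -0.33, both within 1.5-fold. The Speer family genes there, which are near-identical copies whose probes may read one another, ran from 0.35 for Speer4c to 1.87 for Speer3.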
